A study of Drosophila melanogaster with 24 samples.

Results

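Transcripts of Drosophila S2 cells exposed to dsRNA against *Sin3A* were compared with those of S2 cells exposed to dsRNA against GFP, both without stress. S2 is a cultured line with features of hemocytes, the blood cells of the fly. The group labelled SIN3 KD received *Sin3A* dsRNA for 4 days, and the control, GFP RNAi, received dsRNA against a gene that flies do not carry for the same time. Both were labelled wild type in genotype, neither received paraquat, and each combined 3 biological replicates. The deposited FPKM value (fragments mapped to a transcript, scaled to its length and to the mapped fragments of the library) is 1 value per group with its 3 replicates combined by the authors, so the spread between replicates cannot be given and no ratio below carries a test of its own. The comparison covers the loci that the authors' software had enough reads to test, 8123 of 14542. Of these, 7573 had a mean of at least 1 FPKM over the 2 groups and were above 0 in both, and these are the loci counted here. The series held 6 further groups, with *lid* dsRNA, with both dsRNAs, and with each of the 4 dsRNA treatments followed by 8.3 mM paraquat, an oxidant, for 24 h.

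SIN3 is the scaffold of a corepressor complex that carries the histone deacetylase RPD3 and, in one form, the histone demethylase dKDM5/LID. The complex removes acetyl groups from histones at promoters, and SIN3 is needed for fly viability and for proliferation of cultured fly cells. It is known in flies for a role in the cell cycle, in mitochondrial function and in methionine metabolism.

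The targeted gene was examined first. *Sin3A* (dm3, chromosome 2R, 8459616 to 8480397) had 61.7 FPKM in the libraries labelled SIN3 KD and 67.9 FPKM in GFP RNAi, a log2 ratio of -0.14. In the other pairs of groups that differ by *Sin3A* dsRNA, it had 58.0 FPKM in SIN3 KD + LID KD and 62.5 in LID KD, 59.7 in SIN3 KD + paraquat and 62.0 in GFP RNAi + paraquat, and 58.8 in SIN3 KD + LID KD + paraquat and 66.5 in LID KD + paraquat. The transcript was thus lower in all 4 pairs but by little, and the limma effect over the other 3 pairs was -0.11 ± 0.04 (log2, SE) with an adjusted p of 0.0633. The study checked the knockdown of SIN3 on the protein, by western blot. The transcript values do not show one. Whether fragments of the introduced dsRNA are counted in them cannot be told from pooled values per locus. Every direction below is that of the libraries labelled SIN3 KD. The other targeted gene shows what a lowered transcript looks like in the same tables. *lid* had 39.1 FPKM in SIN3 KD and 37.2 in GFP RNAi, but 16.9 in SIN3 KD + LID KD and 14.9 in LID KD.

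Most loci were alike in the 2 groups. The median log2 ratio was -0.01, and 5859 of 7573 loci lay within 1.4-fold, the fold change that the study used. Past 1.4-fold, 786 loci (10.4%) were higher and 928 (12.3%) lower in SIN3 KD. The higher locus nearest the threshold, barely past it, was *CG2846*, with 41.9 FPKM in SIN3 KD and 30.0 in GFP RNAi. On the lower side *CG40228* just missed it and was not counted as lower, with 113 FPKM in SIN3 KD and 159 in GFP RNAi. Past 2-fold, 119 were higher and 291 lower.

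Since the values of the replicates are combined, a repeat of the comparison was sought in libraries it does not use. The groups SIN3 KD + LID KD and LID KD, SIN3 KD + paraquat and GFP RNAi + paraquat, and SIN3 KD + LID KD + paraquat and LID KD + paraquat form 3 more pairs that differ by *Sin3A* dsRNA. A limma fit on log2(FPKM + 0.1) gave the mean effect of *Sin3A* dsRNA over these 3 pairs, with p-values adjusted by the Benjamini-Hochberg method over 7748 loci and called under 0.05. It called 2061 loci higher (26.6%) and 2034 lower (26.3%). A locus is said below to have risen or fallen only where it was past 1.4-fold in the comparison and was called in the same direction in the other 3 pairs, and the plots mark the other loci past 1.4-fold as not repeated. By this rule 705 loci rose (9.31%) and 674 fell (8.90%), which is 89.7% of those higher and 72.6% of those lower past 1.4-fold. Another 2 of the higher and 3 of the lower loci were called in the opposite direction. In 361 of the loci past 1.4-fold higher and 394 of those lower, the ratio was past 1.4-fold the same way in all 4 pairs. The counts of gene lists below are to be read against these shares. The counts rest most on the pair SIN3 KD + LID KD + paraquat and LID KD + paraquat: without it limma called 948 loci higher and 793 lower, and 569 loci rose and 450 fell. The spread in this fit is between pairs of groups that also differ in *lid* dsRNA and paraquat, and each pooled value counts as 1 observation.

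**Figure D1:**
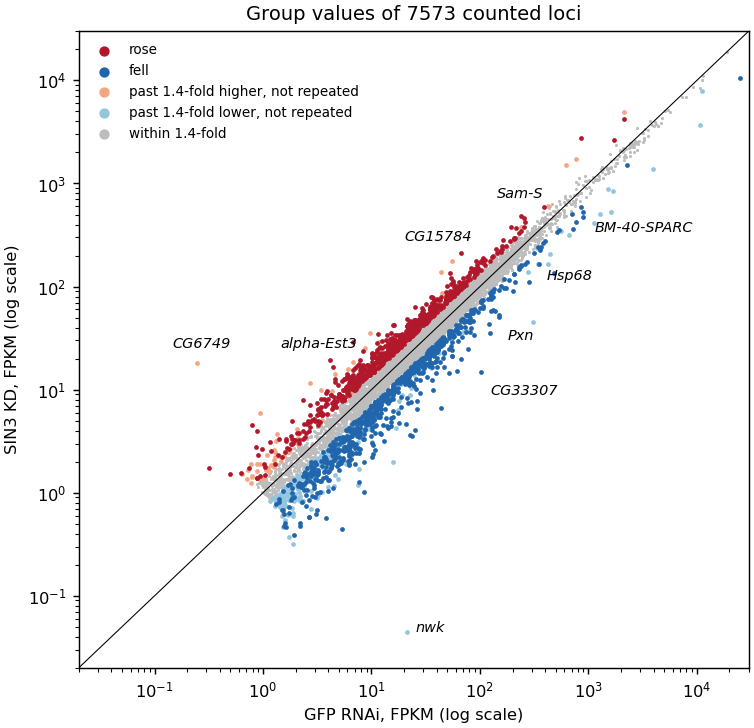
FPKM in SIN3 KD (vertical, log scale) against FPKM in GFP RNAi (horizontal, log scale) for the 7573 counted loci, 1 point per locus, with the line of equal values. Dark red points are the 705 loci that rose and dark blue points the 674 that fell; *CG6749* and *nwk* stand far from the line and were not repeated in the other pairs.

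**Figure D2:**
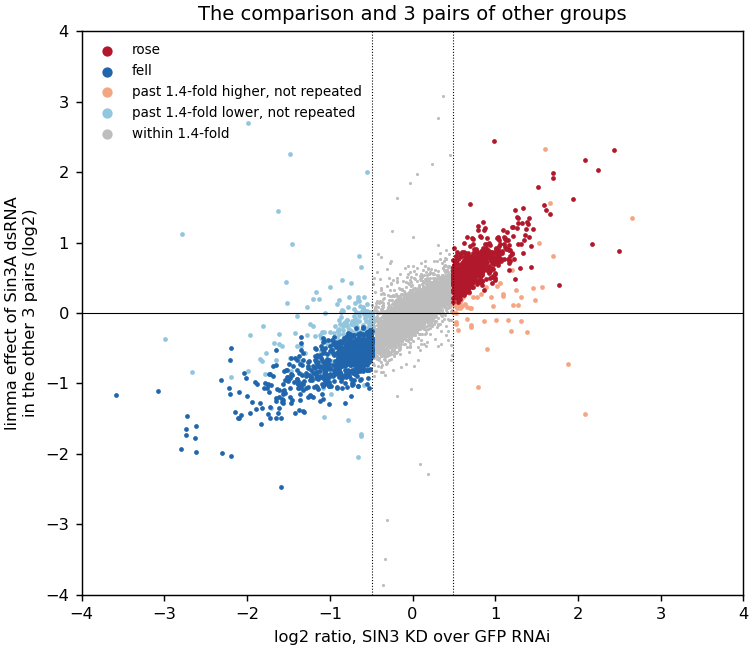
The log2 ratio of the comparison (horizontal) against the limma effect of *Sin3A* dsRNA in the other 3 pairs of groups (vertical, log2) for 7530 counted loci, with dotted lines at 1.4-fold; 9 loci lie outside the axes. Most loci past the dotted lines lie on the same side of 0 on the vertical axis, and 705 of the 786 higher loci and 674 of the 928 lower ones were called there in the same direction.

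The largest ratios among loci with a mean of at least 5 FPKM were those of 10 loci at each end, of which 6 at the high end rose and 7 at the low end fell. At the high end stood *alpha-Est3*, a carboxylesterase of the alpha-esterase cluster (chromosome 3R, 3364693 to 3367349), with 19.5 FPKM in SIN3 KD and 4.14 in GFP RNAi. Its log2 ratio was 2.24, and 2.13, 2.08 and 1.88 in the other pairs (limma effect 2.03 ± 0.07, SE, adjusted p = 0.00211). *CG30010* had 28.7 FPKM in SIN3 KD and 6.79 in GFP RNAi, *CG7231* had 16.8 and 4.38, and *CG15784* had 212 and 66.9. These 4 genes rose by 3.17-fold to 4.71-fold, and in each of them the ratio was past 1.4-fold in every other pair as well. Outside the naming rule and chosen after the values were seen, *CG1969*, which RefSeq names *Gnpnat* and which makes N-acetylglucosamine phosphate, rose to 34.6 FPKM in SIN3 KD, against 11.5 in GFP RNAi. *Aprt*, the adenine salvage enzyme, was chosen likewise and had 63.6 FPKM in SIN3 KD and 25.4 in GFP RNAi. Its log2 ratio of 1.32 hardly varied over the other pairs, at 1.24, 1.36 and 1.25.

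At the low end, *CG33307* (chromosome 2L, 13835566 to 13898714) had 14.8 FPKM in SIN3 KD and 103 in GFP RNAi, a log2 ratio of -2.80, and -1.87, -2.21 and -1.72 in the other pairs (limma effect -1.93 ± 0.11, SE, adjusted p = 0.00213). *CG4250* had 3.53 FPKM in SIN3 KD and 23.5 in GFP RNAi. *CG4829*, annotated as a gamma-glutamyl transferase, which cleaves glutathione outside the cell, had 6.59 and 43.9. The tetraspanin *Tsp42Eg* had 4.09 FPKM in SIN3 KD and 25.3 in GFP RNAi. *CG14527*, a neprilysin-like protease that RefSeq names *Nepl20*, had 3.67 and 22.6. The glutathione transferase *GstD7* had 2.21 FPKM in SIN3 KD and 10.2 in GFP RNAi. The locus *CG31675,CG9338* had 4.67 and 20.7, and its reads cannot be divided between its 2 genes here. All 7 fell, by 4.43-fold to 6.97-fold, and in the other 3 pairs their ratios were smaller in size than in the comparison. The 7 were picked for their low ratios in the comparison, and such a choice can by itself leave smaller ratios elsewhere.

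The remaining loci at the 2 ends did not repeat or are short RNAs. *nwk*, which encodes a protein of the neuromuscular synapse, had 0.0446 FPKM in SIN3 KD and 21.1 in GFP RNAi, and between 0.0540 and 0.107 in the other 6 groups. *CG6749* had 18.0 FPKM in SIN3 KD and 0.245 in GFP RNAi, and between 0.0681 and 0.326 in the other 6 groups. Each thus has a single group that stands apart from the other 7, and pooled values cannot show whether that rests on 1 library. The other 7 loci (5 at the high end and 2 at the low end) are named for snoRNA or microRNA genes. *snoRNA:Psi18S-640a*, for instance, had 11.6 FPKM in SIN3 KD and 2.73 in GFP RNAi but log2 ratios of -6.71, -4.95 and 7.35 in the other pairs. Of 107 counted loci named for such small RNAs, 22 were higher and 42 lower past 1.4-fold, while 5 rose and 5 fell. A further 21 loci with a mean of at least 1 FPKM were listed at 0 in one group (16 in SIN3 KD and 5 in GFP RNAi), and all 21 are small RNA loci.

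Genes of the SIN3 complex itself were mostly alike in the 2 groups. Of 11 counted, 1 rose, 1 fell and 9 lay within 1.4-fold, beside 9.31% and 8.90% of all loci. *Rpd3*, the deacetylase, fell to 72.9 FPKM in SIN3 KD, against 102 in GFP RNAi. Its log2 ratio was -0.49, and -0.57, -0.59 and -0.68 in the other pairs (limma adjusted p = 0.00216). *Sap130*, a subunit of the complex, rose to 26.0 FPKM in SIN3 KD, against 18.6 in GFP RNAi.

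Transcripts of the cell division machinery were lower in the libraries labelled SIN3 KD. Of 57 counted mitosis genes, 53 had a ratio below 0, 25 were lower and 0 higher past 1.4-fold, and 24 fell, with a median log2 ratio of -0.46 beside -0.01 over all loci. In the other 3 pairs limma called 48 of the 57 lower and 2 higher. *Cks30A*, which binds the mitotic kinase Cdk1, had 29.4 FPKM in SIN3 KD and 62.3 in GFP RNAi, a log2 ratio of -1.09, and -1.25, -1.28 and -1.13 in the other pairs. The mitotic kinase *polo* had 76.0 FPKM in SIN3 KD and 118 in GFP RNAi. *ial* (Aurora B) had 36.2 and 54.2, and its partner *Incenp* had 29.7 and 48.9. The kinesin-like gene *nod*, the spindle pole gene *asp*, the securin gene *pim* and the checkpoint kinase gene *BubR1* fell too, with log2 ratios of -0.96, -0.66, -0.60 and -0.57. The centromeric histone gene *cid* had 3.60 FPKM in SIN3 KD and 5.09 in GFP RNAi but missed the limma threshold (adjusted p = 0.0756). In bulk RNA, fewer cells in a phase of the cycle and less RNA per cell cannot be told apart.

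Among DNA replication genes, 15 of 51 fell and 0 rose, 47 had a ratio below 0, and the median log2 ratio was -0.41. *Ts*, thymidylate synthase, had 36.2 FPKM in SIN3 KD and 80.3 in GFP RNAi (log2 ratio -1.15). *Mcm7*, a subunit of the replicative helicase, had 40.9 and 65.6. *Mcm2*, *Mcm3* and *Mcm5* of the same helicase fell with log2 ratios of -0.54, -0.49 and -0.62. *RnrL*, the large subunit of ribonucleotide reductase, had 70.8 FPKM in SIN3 KD and 101 in GFP RNAi. The 2 lists differ in one respect: the mitosis genes had medians of -0.53, -0.63 and -0.61 in the other pairs, each further from 0 than in the comparison, while those of the replication genes, -0.34, -0.48 and -0.43, lay on either side of it. The G1/S list was less uniform, with 1 of 21 risen, 2 fallen and a median of -0.05. Its 1 risen member was *Cdk9*, whose role given below is in transcription and not in the G1/S step. Of all loci, 9.31% rose and 8.90% fell, the latter near the fallen share of this list. *Cdk4*, the cyclin D partner that drives cell growth in flies, fell to 17.7 FPKM in SIN3 KD, against 33.4 in GFP RNAi, with a log2 ratio of -0.92 and of -0.85, -0.94 and -0.71 in the other pairs. *lin-52*, a subunit of a complex that represses and activates cell cycle genes, fell as well (15.0 FPKM in SIN3 KD and 21.8 in GFP RNAi), and *Cdk9*, the kinase that releases paused polymerase, rose (31.0 and 21.3).

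**Figure D3:**
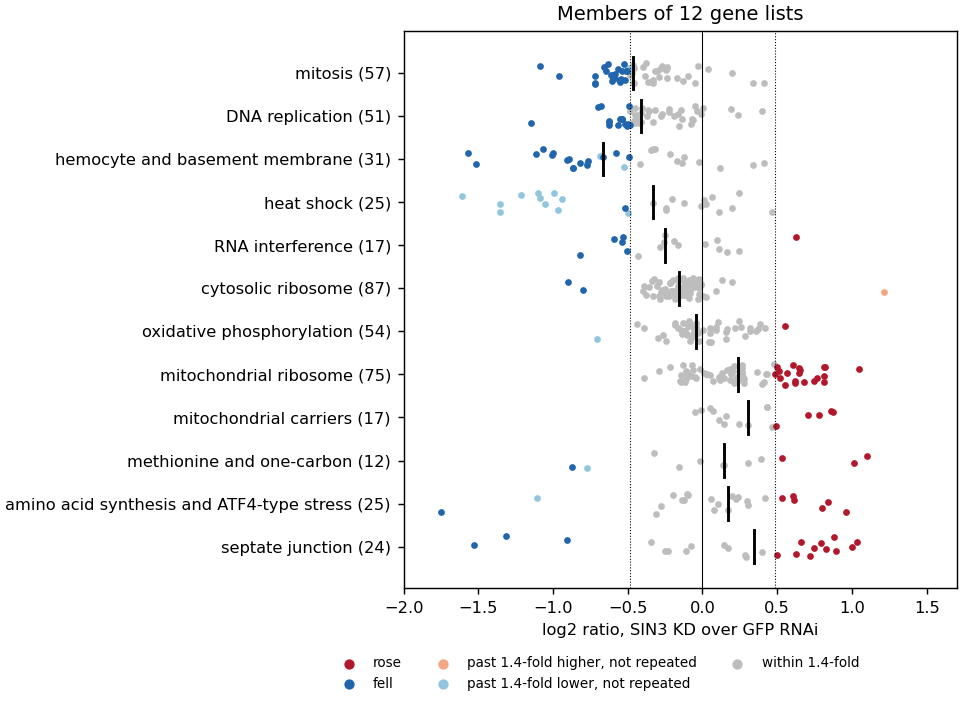
Log2 ratios of SIN3 KD over GFP RNAi (horizontal) for the counted members of 12 gene lists (number of members in parentheses), 1 point per locus, with a black bar at each list's median and dotted lines at 1.4-fold. The mitosis, DNA replication and hemocyte lists hold fallen loci (24, 15 and 16) and no risen one, the mitochondrial ribosome list holds 20 risen and no fallen one, and 11 of the 12 heat shock loci past the line missed the limma call over 3 pairs, although all 11 were lower past 1.4-fold in SIN3 KD + LID KD against LID KD too.

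Genes that mark hemocytes or build basement membrane, which hemocytes secrete, were the most often lower among the lists used. Of 31 counted, 19 were lower and 0 higher past 1.4-fold, 16 fell, and the median log2 ratio was -0.67. *Pxn* (peroxidasin, which crosslinks collagen IV) had 50.9 FPKM in SIN3 KD and 151 in GFP RNAi, a log2 ratio of -1.57, and -1.14, -1.32 and -0.97 in the other pairs (limma effect -1.15 ± 0.07, SE, adjusted p = 0.00218). The collagen IV genes *vkg* and *Cg25C* had 78.8 and 119 FPKM in SIN3 KD, against 125 and 167 in GFP RNAi. *BM-40-SPARC*, a collagen-binding protein, had 472 FPKM in SIN3 KD and 884 in GFP RNAi. *He* (Hemese), a surface protein of hemocytes, had 425 and 774. The scavenger receptor genes *Sr-CI* (58.3 FPKM in SIN3 KD and 126 in GFP RNAi) and *Sr-CIII* (5.31 and 15.2) fell also. So did *trol* (perlecan), the laminin genes *wb* and *LanB2*, and the protease gene *Mmp2*, with log2 ratios of -0.77, -0.82, -0.77 and -0.89. In all, 28 of the 31 had a ratio below 0. *srp*, the GATA factor of the hemocyte lineage, had 68.6 FPKM in SIN3 KD and 85.7 in GFP RNAi, and *eater*, a phagocytic receptor, had 42.8 and 57.3, both within 1.4-fold. Above 0 and within 1.4-fold were *LanA*, with 339 FPKM in SIN3 KD and 313 in GFP RNAi, and the receptor gene *crq*, with 140 and 111. So was *Tep2*, with 48.7 FPKM in SIN3 KD and 36.5 in GFP RNAi. Its log2 ratio was 0.41, and 0.71, 0.53 and 0.56 in the other pairs (limma adjusted p = 0.00267). Over the other 3 pairs limma called 19 of the 31 lower and 2 higher.

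Of the 14 markers of hemocyte-lineage cells, 13 were at or above 1 FPKM in each group, and only *Hml* was below that level (0.336 FPKM in SIN3 KD and 0.779 in GFP RNAi). Their summed level was 2020 FPKM in SIN3 KD and 3139 in GFP RNAi. Markers of other cells were sparse. Of 7 muscle markers 0 reached 1 FPKM, the highest being *sls* with 0.475 FPKM in SIN3 KD and 0.402 in GFP RNAi. Gut markers summed to 0.623 and 0.872 (6 genes, 4 at 0 in SIN3 KD and 2 in GFP RNAi), fat body markers to 1.82 and 2.75 (7 genes), and neuron markers to 7.15 and 5.91 (7 genes, chiefly *elav*, with 4.98 FPKM in SIN3 KD and 3.22 in GFP RNAi). Germ line markers summed to 45.4 FPKM in SIN3 KD and 52.0 in GFP RNAi over 6 genes, of which *aub* gave 30.9 and 36.9.

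Several hemocyte genes lie side by side. Among neighbouring counted loci, 12 runs of at least 4 were past 1.4-fold in one direction, 11 lower and 1 higher; the runs were sought after the values were seen. The longest holds 8 loci on chromosome 2L (13905644 to 13976753): *Ance*, an angiotensin-converting enzyme homologue, *He* and 6 genes of the Nimrod family of phagocytosis receptors and secreted relatives. All 8 were lower past 1.4-fold, with log2 ratios between -1.55 and -0.58, and 6 of them fell. *Ance* had 12.4 FPKM in SIN3 KD and 36.2 in GFP RNAi, *nimB5* had 46.0 and 85.5, *nimB2* had 20.1 and 40.2, *nimB4* had 11.6 and 24.3, and *nimC1*, a phagocytosis receptor, had 3.53 and 6.43. *nimB1* (26.9 FPKM in SIN3 KD and 45.8 in GFP RNAi) and *nimB3* (2.13 and 3.17) did not pass the limma test. Another run, of 5 loci on the X chromosome (3693180 to 3774329), holds *HIP*, *ec*, *yin*, *CG34336* and *CG2930*, and all 5 fell. Of these, *yin*, a peptide transporter, had 23.1 FPKM in SIN3 KD and 46.6 in GFP RNAi, with a log2 ratio of -1.01 that hardly varied over the other pairs. RefSeq gives the name *yin* to the locus *CG34336* too, so the 2 loci may not be separate genes. *CG34336* had 0.446 FPKM in SIN3 KD and 5.36 in GFP RNAi. It passed the filter of a mean of at least 1 FPKM only through its GFP RNAi value. It could therefore be counted only as lower. Its log2 ratio was -3.59, and -1.36, -1.77 and -0.35 in the other pairs. The gene *ec* (echinus) beside *yin* had 1.98 FPKM in SIN3 KD and 8.48 in GFP RNAi.

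Many heat shock genes were lower in SIN3 KD, as they were in SIN3 KD + LID KD, but not in the pairs with paraquat. These chaperones refold or hold damaged proteins and are switched on by heat and other stress. Of 25 counted, 12 were lower and 0 higher past 1.4-fold, with a median log2 ratio of -0.33, and 13 lay within 1.4-fold. A ratio above 0 was seen in 7 of the 25. Over the other 3 pairs limma called 6 of them higher and 2 lower. Only *HIP* (6.93 FPKM in SIN3 KD and 9.91 in GFP RNAi), a co-chaperone, fell by the rule. *Hsp26*, a small heat shock protein gene, had 315 FPKM in SIN3 KD and 667 in GFP RNAi, and *Hsp23* had 167 and 427. *Hsp27* had 208 FPKM in SIN3 KD and 447 in GFP RNAi, and the locus *Hsp22,Hsp67Bb* had 139 and 278. *Hsp68*, of the Hsp70 class, had 167 and 346. *Hsp70Bb* had 36.0 FPKM in SIN3 KD and 70.2 in GFP RNAi, and *Hsp70Bc* had 8.92 and 22.8. The *Hsp70* copies are nearly identical in sequence, so how reads were divided among them is uncertain, and each had a log2 ratio between -1.61 and -0.94. *DnaJ-1*, the Hsp40 partner, had 238 FPKM in SIN3 KD and 336 in GFP RNAi.

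The other 11 loci past 1.4-fold missed the limma call, which is made on the mean of the other 3 pairs. All 11 were lower past 1.4-fold in SIN3 KD + LID KD against LID KD, and 0 of the 11 were past 1.4-fold either way in the 2 pairs with paraquat. *Hsp68* had 29.5 FPKM in SIN3 KD + LID KD and 171 in LID KD, but 48.3 in SIN3 KD + paraquat and 45.2 in GFP RNAi + paraquat, and 45.0 in SIN3 KD + LID KD + paraquat and 45.6 in LID KD + paraquat. *Hsp26* had 64.7 FPKM in SIN3 KD + LID KD and 309 in LID KD, 117 in SIN3 KD + paraquat and 112 in GFP RNAi + paraquat, and 103 in SIN3 KD + LID KD + paraquat and 106 in LID KD + paraquat. The control with paraquat already stood far below the control without it. *Hsp68* had 45.2 FPKM in GFP RNAi + paraquat against 346 in GFP RNAi, and *Hsp26* had 112 against 667. Whether this lower level bears on the ratios with paraquat was not tested. The limma adjusted p of the 11 lay between 0.141 and 0.648 over the 3 pairs, and whether the ratios without paraquat differ from those with it was not tested. The factor that drives these genes, *Hsf*, had 71.7 FPKM in SIN3 KD and 60.4 in GFP RNAi. Constitutive chaperones were within 1.4-fold, such as *Hsc70-4* with 2131 FPKM in SIN3 KD and 1976 in GFP RNAi, and *Hsp83* with 1811 and 2143. *CG14207* of the same list was higher but within 1.4-fold, with 71.1 FPKM in SIN3 KD and 51.4 in GFP RNAi. Limma called it higher in the other 3 pairs (adjusted p = 0.00374).

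**Figure D4:**
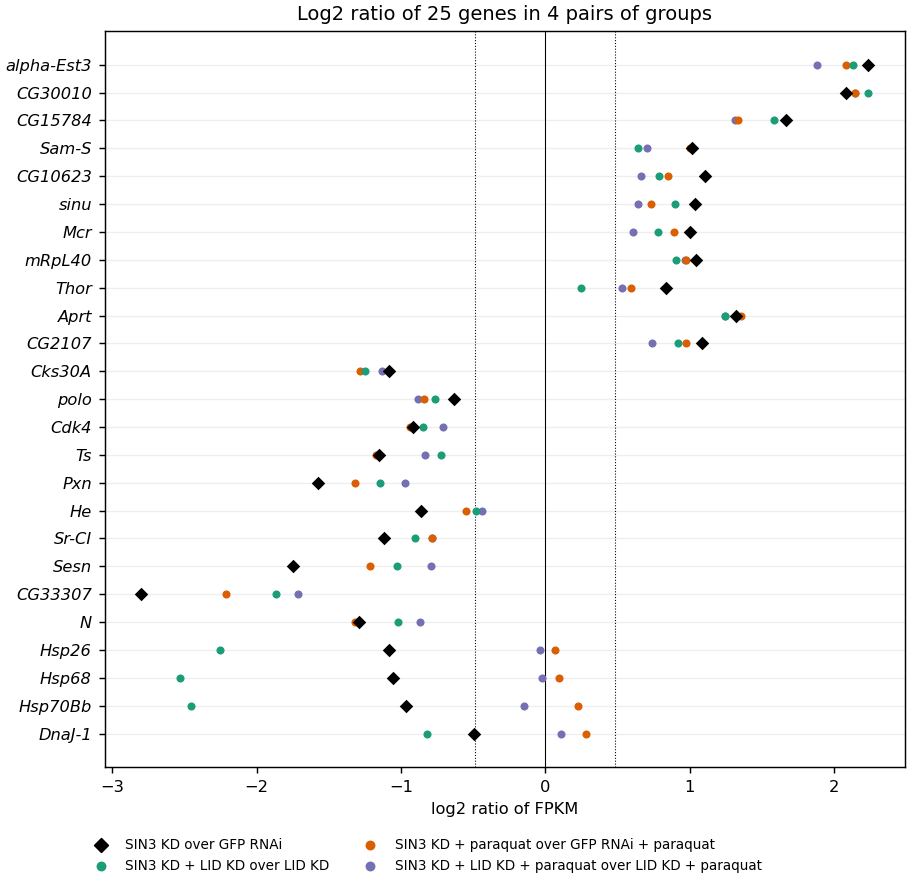
Log2 ratio of FPKM (horizontal) for 25 genes in 4 pairs of groups: SIN3 KD over GFP RNAi (black diamonds) and the 3 other pairs that differ by *Sin3A* dsRNA (circles), with dotted lines at 1.4-fold. The first 21 genes keep their side of 0 in all 4 pairs, while *Hsp26*, *Hsp68*, *Hsp70Bb* and *DnaJ-1* are below 0 in both pairs without paraquat and near 0 or above it in a pair with paraquat.

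Methionine metabolism supplies S-adenosylmethionine, the methyl donor for histones and other substrates. *Sam-S*, S-adenosylmethionine synthetase (chromosome 2L, 106902 to 114432), rose to 484 FPKM in SIN3 KD, against 240 in GFP RNAi, with a log2 ratio of 1.01, and of 0.65, 1.00 and 0.71 in the other pairs (limma effect 0.79 ± 0.08, SE, adjusted p = 0.00403). *Ahcy13*, which hydrolyses the S-adenosylhomocysteine left after methyl transfer, had 223 FPKM in SIN3 KD and 154 in GFP RNAi, and its log2 ratio of 0.53 was 0.58, 0.60 and 0.58 in the other pairs. *CG10623*, a homocysteine methyltransferase that RefSeq names *Bhmt*, had 24.3 FPKM in SIN3 KD and 11.3 in GFP RNAi. *Cbs*, which draws homocysteine into cysteine synthesis, fell to 16.4 FPKM in SIN3 KD, against 30.0 in GFP RNAi. Of 12 counted genes of methionine and one-carbon metabolism, 3 rose and 1 fell, beside 9.31% and 8.90% of all loci, the fallen share being near that of all loci. *CG10621*, related to *CG10623*, had 2.29 FPKM in SIN3 KD and 3.91 in GFP RNAi and missed the limma threshold (adjusted p = 0.107).

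Some transcripts for proteins of the mitochondrial ribosome, which translates the messages of mitochondrial DNA, rose. Of 75 counted, 20 rose and 0 fell, 57 had a ratio above 0, and the median log2 ratio was 0.24, although limma called 11 of the 75 lower in the other 3 pairs. *mRpL40* had 46.7 FPKM in SIN3 KD and 22.6 in GFP RNAi (log2 ratio 1.04), *mRpL19* had 60.9 and 34.6, and *mRpS2* had 45.1 and 25.5. *mRpS6* had 31.1 FPKM in SIN3 KD and 18.6 in GFP RNAi, with a log2 ratio of 0.74 that was 0.87, 0.94 and 0.91 in the other pairs. Carriers of the inner mitochondrial membrane were higher too: 5 of 17 rose, 0 fell, and the median was 0.30. *CG3476*, a magnesium exporter that RefSeq names *MME1*, had 44.8 FPKM in SIN3 KD and 24.5 in GFP RNAi. *CG4743* had 26.6 and 14.6, *CG1907* had 60.2 and 35.1, and *Tpc1*, the thiamine pyrophosphate carrier, had 32.0 and 19.7.

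The listed genes of the respiratory chain moved little. Of 54 counted oxidative phosphorylation genes, 1 rose (*CG8680*, with 80.2 FPKM in SIN3 KD and 54.6 in GFP RNAi), 0 fell, and the median log2 ratio was -0.04. *Cyt-c-d*, with 3.65 FPKM in SIN3 KD and 5.97 in GFP RNAi, was lower past 1.4-fold without a limma call. In that list 9 symbols matched no locus. Outside it, *CG3621*, which RefSeq names *ND-B14.5A*, had 15.9 FPKM in SIN3 KD and 23.4 in GFP RNAi, also without a call. In the tricarboxylic acid cycle 2 of 21 rose, a share near the 9.31% of all loci: *Idh*, isocitrate dehydrogenase (NADP+), with 372 FPKM in SIN3 KD and 213 in GFP RNAi, and *CG6439*, a subunit of the NAD+ enzyme, with 94.6 and 64.7. Of 23 glycolysis and glycerol phosphate genes 4 rose and 2 fell, the fallen share near that of all loci. *Pfk*, phosphofructokinase, had 54.2 FPKM in SIN3 KD and 34.5 in GFP RNAi, *Pgm*, phosphoglucomutase, had 102 and 58.4, and *ImpL3*, lactate dehydrogenase, had 25.8 and 14.7. *Gpdh*, glycerol 3-phosphate dehydrogenase, fell to 1.91 FPKM in SIN3 KD, against 6.14 in GFP RNAi. In fatty acid oxidation 3 of 30 rose, a share near that of all loci, and 6 fell. *CG2107*, carnitine palmitoyltransferase 2 (*CPT2* in RefSeq), had 62.3 FPKM in SIN3 KD and 29.4 in GFP RNAi, while the acyl-CoA synthetase gene *bgm* had 1.24 and 2.90.

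Genes that answer amino acid shortage or stress of the endoplasmic reticulum held 6 risen and 1 fallen of 25, with a median of 0.17. The shares of all loci, for this list and the lists after it, were 9.31% risen and 8.90% fallen. *Thor* (4E-BP), which holds back cap-dependent translation, had 460 FPKM in SIN3 KD and 257 in GFP RNAi. Its log2 ratio was 0.84, and 0.25, 0.59 and 0.53 in the other pairs (limma adjusted p = 0.0126). *Gs2*, glutamine synthetase, had 106 FPKM in SIN3 KD and 54.6 in GFP RNAi. *CG6272* (*Irbp18*), a bZIP factor, had 42.3 and 24.4. *aay*, phosphoserine phosphatase, had 52.2 and 34.1. *Gp93*, a chaperone of the endoplasmic reticulum, had 588 FPKM in SIN3 KD and 387 in GFP RNAi, and *Ire1*, a sensor of unfolded protein there, had 91.9 and 63.5. *Sesn* (sestrin), an inhibitor of TOR signalling, moved the other way and fell to 7.78 FPKM in SIN3 KD, against 26.1 in GFP RNAi, with a log2 ratio of -1.75, and of -1.02, -1.21 and -0.79 in the other pairs. In the insulin and TOR list, which shares *Thor* and *Sesn*, 3 of 21 rose and 1 fell. Also risen there were *gig* (Tsc2), with 17.5 FPKM in SIN3 KD and 12.2 in GFP RNAi, and *RagC*, with 74.6 and 51.0. Among amino acid transporters 3 of 16 rose and 2 fell, *JhI-21* having 609 FPKM in SIN3 KD and 422 in GFP RNAi without a call in the other pairs.

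Among redox and detoxification genes, 3 of 32 in the glutathione list rose and 6 fell, with a median of -0.11, beside 9.31% risen and 8.90% fallen of all loci. *PHGPx*, a glutathione peroxidase, rose to 375 FPKM in SIN3 KD, against 195 in GFP RNAi (log2 ratio 0.95, and 0.90, 0.95 and 0.76 in the other pairs). *GstE2* fell to 18.4 FPKM in SIN3 KD, against 43.2 in GFP RNAi, and *GstD3* to 59.7, against 133. *GstE6* had 62.8 FPKM in SIN3 KD and 64.8 in GFP RNAi, but was called higher by limma in the other 3 pairs (effect 0.41 ± 0.04, SE, adjusted p = 0.00313). Of 22 antioxidant genes 3 rose and 2 fell, close to the shares of all loci. *Keap1*, the inhibitor of the antioxidant factor CncC, had 23.1 FPKM in SIN3 KD and 14.1 in GFP RNAi. *Sod3*, an extracellular superoxide dismutase, had 2.26 and 6.23, and *dj-1beta*, a redox-sensitive protein, had 37.4 and 59.1. Cytochrome P450 genes, of which 34 were counted, held 1 risen and 6 fallen, such as *Cyp12a5* (20.5 FPKM in SIN3 KD and 45.2 in GFP RNAi) and *Cyp9f2* (36.6 and 62.4).

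The alpha-esterase cluster showed that neighbours need not move alike. *alpha-Est4* rose with *alpha-Est3*, having 1.74 FPKM in SIN3 KD and 0.320 in GFP RNAi, with a log2 ratio of 2.44, and of 2.37, 2.45 and 2.10 in the other pairs. At 0.320 FPKM in GFP RNAi, *alpha-Est4* passed the filter of a mean of at least 1 FPKM only through its SIN3 KD value. It could therefore be counted only as higher. *alpha-Est7* fell (1.31 FPKM in SIN3 KD and 3.41 in GFP RNAi). *alpha-Est1* had 2.71 FPKM in SIN3 KD and 4.53 in GFP RNAi, a log2 ratio of -0.74, yet 0.51, 0.37 and 0.40 in the other pairs. It is 1 of the 3 lower loci called in the opposite direction (limma adjusted p = 0.00930), and the test of the difference between the comparison and the other pairs gave a limma adjusted p of 0.375. *alpha-Est8* and *alpha-Est10* lay within 1.4-fold.

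Septate junctions seal epithelia in flies. Of 24 counted, 11 rose and 3 fell, with a median log2 ratio of 0.34. The claudin family genes *sinu* and *kune* had 33.8 and 94.1 FPKM in SIN3 KD, against 16.5 and 66.5 in GFP RNAi. *Mcr*, a secreted core component, had 114 FPKM in SIN3 KD and 57.0 in GFP RNAi, a log2 ratio of 1.00, and 0.78, 0.89 and 0.61 in the other pairs (limma adjusted p = 0.00279). The adhesion genes *Nrx-IV* (101 FPKM in SIN3 KD and 59.9 in GFP RNAi), *Cont* (99.2 and 57.3) and *Lac* (187 and 106) rose as well. So did the scaffold gene *vari* (52.9 and 33.5), the transferrin gene *Tsf2* (52.6 and 28.3), and the Ly6 family genes *crim* (33.8 and 18.4) and *cold* (49.3 and 30.0). The Ly6 family gene *bou* fell, with 1.19 FPKM in SIN3 KD and 2.96 in GFP RNAi. The adhesion genes *Nrt* (5.47 FPKM in SIN3 KD and 15.8 in GFP RNAi) and *Fas3* (12.2 and 22.9) fell with it. Polarity genes that share this membrane were within 1.4-fold, *dlg1* with 64.3 FPKM in SIN3 KD and 75.4 in GFP RNAi and *scrib* with 36.3 and 39.2.

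In the Notch pathway 3 of 16 counted genes fell and 0 rose, all at low levels. The receptor gene *N* had 2.97 FPKM in SIN3 KD and 7.27 in GFP RNAi, a log2 ratio of -1.29, and -1.02, -1.32 and -0.87 in the other pairs. The ligand gene *Ser* had 2.05 and 5.12, and the inhibitor *numb* had 3.13 and 5.36. The target gene *E(spl)mbeta-HLH* had 2.44 FPKM in SIN3 KD and 7.66 in GFP RNAi and missed the limma threshold (adjusted p = 0.0606). In the Dpp/BMP list 2 of 21 fell, a share near the 8.90% of all loci. They were *sog*, a secreted antagonist, with 3.31 FPKM in SIN3 KD and 8.45 in GFP RNAi, and *Snoo*, a Smad corepressor, with 9.30 and 14.8. Of 38 counted immune genes 5 rose and 3 fell, close to the 9.31% and 8.90% of all loci. The antimicrobial peptide genes *AttB* (13.6 FPKM in SIN3 KD and 6.10 in GFP RNAi) and *AttA* (6.30 and 3.18) rose, and *CecC* (4.13 and 8.77) fell. The 2 *Att* genes are close copies, so their split is uncertain.

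Genes of small RNA pathways held 5 fallen and 1 risen of 17, a median of -0.25. *piwi*, an Argonaute of the germ line, had 30.7 FPKM in SIN3 KD and 46.4 in GFP RNAi, and *AGO3* had 12.7 and 18.3. The helicase gene *spn-E* had 6.77 and 11.9, with a log2 ratio of -0.82, and of -0.99, -0.97 and -1.04 in the other pairs. *loqs*, a partner of Dicer, had 7.41 FPKM in SIN3 KD and 10.8 in GFP RNAi. In the Polycomb and heterochromatin list 1 of 22 rose and 2 fell, beside 9.31% and 8.90% of all loci. Cytosolic ribosomal protein genes were nearly all within 1.4-fold (84 of 87), with 81 of 87 below 0 and a median of -0.16. Their medians in the other pairs were -0.10, -0.07 and 0.03, and limma called 12 of the 87 lower and 2 higher there. *RpL28* had 4963 FPKM in SIN3 KD and 2139 in GFP RNAi, but between 2616 and 7036 FPKM in the other 6 groups, and it was not called in the other pairs (limma adjusted p = 0.743).

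Of 15 counted genes that the study examined by qRT-PCR or ChIP-qPCR, 5 rose (*vari*, *mRpL19*, *Thor*, *CG3476* and *Sam-S*), 3 fell (*Sesn*, *wb* and *Mcm7*) and *Hsp27* was lower without a call. Many of them were chosen with these samples in view and are no independent evidence of a direction, while *wb* served in the study as a control gene that neither factor targets and *Taf1* as the qRT-PCR normaliser. Within 1.4-fold were *Gapdh1* (153 FPKM in SIN3 KD and 131 in GFP RNAi), *Cyt-c-p* (765 and 613), *Ssdp* (24.2 and 21.5), *Taf1* (25.9 and 26.0), *ihog* (10.4 and 11.9) and *GstE6*.

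The changed loci were unevenly spread over the chromosomes. On the autosomal arms 2L, 2R, 3L and 3R, 722 of 6195 counted loci (11.7%) were higher and 669 (10.8%) lower past 1.4-fold. On the X chromosome 64 of 1261 (5.08%) were higher and 216 (17.1%) lower, with a median log2 ratio of -0.15 beside 0.03 on those arms. On chromosome 4, a small and largely heterochromatic chromosome, 0 of 73 were higher and 24 (32.9%) lower, 23 of them fell, and the median was -0.29. On the dm3 scaffolds of pericentric heterochromatin 0 of 44 were higher and 19 (43.2%) lower. The medians in the other 3 pairs were -0.11, -0.16 and -0.14 on the X chromosome and -0.26, -0.31 and -0.31 on chromosome 4, and 0.02, 0.05 and 0.02 on the autosomal arms. A run of 6 neighbouring loci on chromosome 4 (235634 to 296995) fell together: *CG31999*, *yellow-h*, *CG1674*, *dpr7*, *RhoGAP102A* and *NfI*. *yellow-h* had 14.6 FPKM in SIN3 KD and 52.2 in GFP RNAi.

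**Figure D5:**
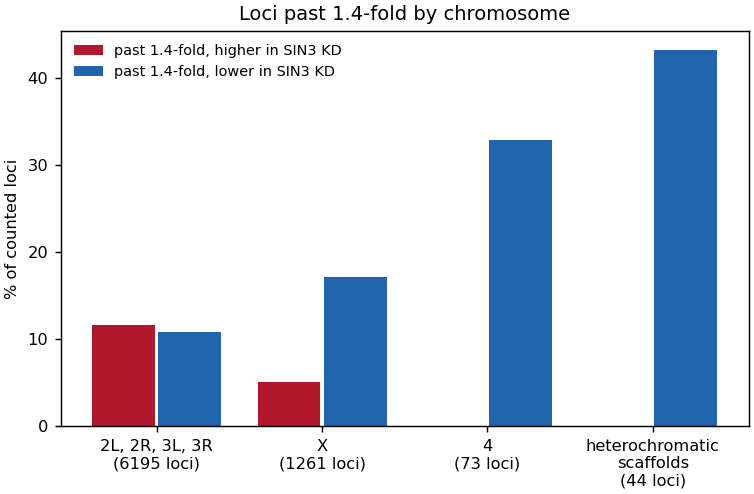
Percentage of counted loci past 1.4-fold higher (red, left bars) and lower (blue, right bars) in SIN3 KD, by chromosome, with the number of counted loci under each pair of bars. The 2 percentages are close on the autosomal arms (11.7% and 10.8%), while on the X chromosome, chromosome 4 and the heterochromatic scaffolds the lower loci exceed the higher ones (17.1%, 32.9% and 43.2% lower, against 5.08%, 0% and 0% higher).

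Dosage compensation raises transcription of the male X chromosome and operates in S2 cells. Of 6 counted genes of its machinery, 1 fell, 0 rose and 5 lay within 1.4-fold, beside 8.90% fallen and 9.31% risen of all loci. Their part in the X chromosome's values was not tested. *roX2*, an RNA of the compensation complex, fell to 47.6 FPKM in SIN3 KD, against 81.5 in GFP RNAi, with a log2 ratio of -0.78, and of -0.55, -0.42 and -0.31 in the other pairs (limma adjusted p = 0.00638). The acetyltransferase gene *mof* had 10.3 FPKM in SIN3 KD and 13.3 in GFP RNAi, *msl-3* had 20.5 and 24.7, *msl-2* had 32.1 and 25.2, and *msl-1* and *mle* were near equal. *Pof*, whose protein coats chromosome 4, rose to 24.0 FPKM in SIN3 KD, against 16.7 in GFP RNAi. Level moved with direction as well. In the lowest quartile of counted loci by mean level (1.00 to 11.4 FPKM), 544 of 1894 were lower and 234 higher, while in the highest quartile (60.9 FPKM and over) 98 of 1893 were lower and 130 higher. By the median log2 ratio, the X chromosome was below the autosomal arms in each quartile. From the lowest level to the highest, its medians were -0.28, -0.15, -0.08 and -0.12, beside -0.09, 0.06, 0.05 and 0.04 on those arms. In the same order, 34.75%, 14.01%, 6.62% and 6.44% of X loci were lower past 1.4-fold, beside 26.26%, 7.44%, 5.74% and 4.67%. In percentage points, these shares were further apart in the lowest quartile than in the highest, where both shares were smaller. On chromosome 4, 66.67% of 18 loci were lower in the lowest quartile and 10.81% of 37 in the highest. On the heterochromatic scaffolds these shares were 78.57% of 14 and 23.53% of 17.

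Whether the effect without stress differed from that in the other 3 pairs was tested in the same limma fit. It called 1 of 7748 loci (0.0129%), and 643 had an unadjusted p under 0.05. The 10 loci of lowest adjusted p (up to 0.158) were 9 snoRNA loci and 1 microRNA locus, of which 8 were listed at 0 in SIN3 KD and 1 in GFP RNAi. *mir-276a* was at 0 in SIN3 KD and at 70.5 FPKM in GFP RNAi, and *snoRNA:CD-24* at 966 in SIN3 KD and at 0 in GFP RNAi and in the other 6 groups. Without small RNA loci, an alternative chosen after the data were seen, 2 loci were called, *nwk* and *CG6749*. Without the pair SIN3 KD + paraquat and GFP RNAi + paraquat, 23 loci were called. All of them except *nwk* are named for snoRNA or microRNA genes. Over the remaining alternatives the count lay between 1 and 12.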

How the data were processed

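The authors purified mRNA from total RNA of S2 cells, sequenced it as paired reads, aligned them to dm3 with Bowtie/TopHat and obtained values with Cufflinks and Cuffdiff, whose versions are not given in the sources used here. Nor is the use of strand in counting, so reads of overlapping or antisense genes may not be separable. The FPKM values were deposited by the authors in 7 Cuffdiff tables, with the 3 replicates of a group combined into 1 value per locus; the GFP RNAi values were identical in all 7 tables. The columns of the authors' own comparison (ratio, log2 fold change, test statistic, p-value, q-value and significance) were not used. Read counts and the depth of each library were not used here.

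Log2 ratios were taken without a pseudocount over loci of status OK, with a mean of at least 1 FPKM and above 0 in both groups. A locus is the region Cuffdiff reported, and 305 counted loci carry several gene names. The limma fit used log2(FPKM + 0.1) of 8 groups, a term per pair, 1 for *Sin3A* dsRNA and 1 for the unstressed single knockdown pair, over loci with a mean of at least 1 FPKM (2 residual degrees of freedom), two-sided, with a variance trend. Pairs share no library. A fold change on that scale is understated for low loci. P-values measure the spread between pairs of pooled values.

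Named are *Sin3A* and *lid*, the 10 highest and 10 lowest ratios with a mean of at least 5 FPKM, members past 1.4-fold of 30 gene lists, genes the study examined by qRT-PCR or ChIP-qPCR, and the 10 loci of lowest adjusted p in the difference test. Members within 1.4-fold, genes of runs, *CG1969* and *Aprt* were named after their values were seen. Gene lists, naming rule and comparison were chosen with earlier results of these data known. Newer names came from a RefSeq gene table. Promoter motifs were planned but not analysed here. The main limma fit was tested on simulated data, with 200 loci changed in all pairs and 200 others in the comparison's pair alone. Its alternatives were not tested in this way. Python 3.11.15, R 4.3.3 and limma 3.58.1 were used.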

Additional observations from a re-analysis of the deposited data

Results flagged for a closer look

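The locus *snoRNA:Me28S-A774a* stood out because its effect in the comparison differed from that in the other 3 pairs by the limma test. It was listed at 0 FPKM in SIN3 KD and at 599 in GFP RNAi, at 0 in SIN3 KD + LID KD and in LID KD, at 432 in SIN3 KD + paraquat and 761 in GFP RNAi + paraquat, and at 0 in SIN3 KD + LID KD + paraquat and in LID KD + paraquat. The difference was -12.28 on the log2(FPKM + 0.1) scale (limma adjusted p = 0.0394), a size that depends on the pseudocount because of the values at 0.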

How the results depend on the processing

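Over 2-fold, 119 loci were higher and 291 lower, and among loci of any gene list 10 were higher and 39 lower in place of 84 and 142. With a mean of at least 5 FPKM, 572 loci were lower. The other filters, pseudocounts and centring kept these counts within 1.5 times. The limma counts in the other 3 pairs kept within 1.5 times except without the SIN3 KD + LID KD + paraquat pair (948 higher, 793 lower). Over the settings that left out a pair they were 948 to 1448 loci higher and 793 to 1398 lower. The difference test, which called 1 locus, called 12 with a pseudocount of 1 FPKM or without the variance trend, 9 without a filter, 2 with a pseudocount of 0.01, a mean of at least 5 FPKM, centring or without small RNA loci, and 1 to 23 when a pair was left out. With 1 common term for all 4 pairs, the effects of *snoRNA:Dek-a* and *snoRNA:Psi28S-2442b* turned to 0.10 and -0.36, and the cause was not tested. No named locus changed direction otherwise. No paired analysis was possible because the deposited columns hold 1 combined value per group and carry no replicate number. Pooled values and unknown depth limit every ratio, most of all those of loci near 1 FPKM.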
